A study of Macaca mulatta with 15 samples.

Results

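Inhibitory receptors are the surface proteins through which a T cell is restrained after it has met its antigen. Their transcripts were followed here in 8 genes: PDCD1, CTLA4, LAG3, TIGIT, HAVCR2, CD160, BTLA and CD96. The genes were taken by symbol from a table of 34884 genes, and all 8 were found. All 8 also passed the filter on low counts, as did 14814 genes in all. They were taken by name as a family, with earlier results of these data known.

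The samples were T cells from the peripheral blood of 2 rhesus macaques (Macaca mulatta), named RhDBCb and RhM22. Each of 15 RNA-seq libraries held naive or memory cells of the CD4 or the CD8 lineage, drawn either from the untreated animal (before) or after treatment. The treatment was 2-hydroxypropyl-beta-cyclodextrin (Kleptose HBP), a cyclic sugar molecule known to take up cholesterol. A 15% (w/w) solution was given under the skin every day, at 1 ml/kg/day, and for at most 120 days. Each animal was its own control, and an untreated animal followed over the same period was not analysed here, so treatment and the passage of time cannot be told apart. The labels give neither the animals' ages nor how the subsets were separated. RhDBCb and RhM22 each gave all 4 subsets before treatment, RhM22 gave all 4 after treatment, and RhDBCb gave 3, its CD8 naive cells after treatment being not analysed here. This makes 7 before-and-after pairs from 4 blood draws. The 2 animals are the biological replicates, and the 4 subsets of a draw share their source.

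An inhibitory receptor acts when it meets its ligand on another cell. PD-1 (PDCD1), BTLA and TIGIT carry tyrosine motifs in their tails that recruit phosphatases, which reverse the phosphorylation started by the T cell receptor. CTLA-4 takes CD80 and CD86 away from the stimulatory receptor CD28, LAG-3 binds major histocompatibility complex class II, and TIM-3 (HAVCR2) has galectin-9 and CEACAM1 among its ligands. TIGIT and CD96 share ligands of the nectin family with the stimulatory receptor CD226, and CD160 and BTLA share the ligand HVEM (TNFRSF14). Naive T cells are known to hold little PD-1 or TIGIT, whereas memory cells, regulatory T cells and T cells under long stimulation hold more.

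The libraries held 44414954 to 71787193 counts and 13525 to 15445 detected genes, the fewest of them in 3 libraries of RhDBCb before treatment. Lineage followed the labels: in CPM (counts scaled to one common library total), CD4 was never under 207 in a CD4 library or over 1.68 in a CD8 library, and CD8A never under 665 in a CD8 library or over 3.93 in a CD4 library. Of the 6 naive-cell markers tested, 3 were lower in CD4 memory than in CD4 naive cells and 4 were lower in CD8 memory than in CD8 naive cells. CCR7, the lymph node homing receptor, was not among these: its range of 6017 to 9553 CPM in CD4 memory lay inside that of CD4 naive cells (5977 to 17550 CPM). In the CD8 lineage its ranges did not overlap, at 2937.2 to 5606.5 CPM in memory and 6476.2 to 10813 CPM in naive cells. Of the 10 markers of memory and effector cells tested, 7 were higher in CD4 memory and 8 in CD8 memory than in the naive cells of the same lineage. Over all genes 3.16% were called lower and 5.22% higher in CD4 memory than in CD4 naive cells. In CD8 memory against CD8 naive cells these shares were 5.39% and 8.1%. CPM is not divided by gene length, so the levels below are compared between libraries and never between genes. In bulk RNA, more cells that hold a transcript and more transcript per cell cannot be told apart.

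PD-1 transcripts were low in naive cells and high in memory cells of both lineages. In CD4 naive cells PDCD1 (ENSMMUG00000063159) lay at 13.6 and 14.2 CPM before treatment and at 14.1 and 14.5 CPM after it (RhDBCb first, then RhM22, here and below). In CD4 memory cells it lay at 47.6 and 53.5 CPM before and at 68.0 and 54.4 CPM after. The 4 naive libraries were almost equal, and every CD4 memory library lay above all of them. In CD8 naive cells PDCD1 lay at 20.9 and 18.0 CPM before and at 14.8 CPM after (RhM22). In CD8 memory cells it lay at 222 and 73.3 CPM before and at 58.5 and 85.0 CPM after. The CD8 memory library of RhDBCb before treatment thus held the highest PDCD1 level of the 15, and the other 3 CD8 memory libraries lay within and above the CD4 memory range.

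TIGIT had the widest step from naive to memory in CD4 cells among the 8 genes. In CD4 naive cells TIGIT was at 2.12 and 2.79 CPM before and at 4.13 and 3.44 CPM after. In CD4 memory cells it was at 37.6 and 39.6 CPM before and at 48.8 and 42.0 CPM after, with no overlap between these groups. CD8 naive cells differed among themselves, with 8.72 CPM in RhDBCb before treatment against 1.65 CPM before and 0.601 CPM after in RhM22. In CD8 memory cells TIGIT was at 50.0 and 19.5 CPM before and at 28.6 and 20.4 CPM after. All 4 of these lay above every CD8 naive library, and they overlapped the CD4 memory range through the RhDBCb library before treatment.

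LAG3 stood out in CD8 memory cells. It was at 1.49 and 0.774 CPM before and at 0.876 and 0.433 CPM after in CD4 naive cells. In CD4 memory cells it was at 1.67 and 1.26 CPM before and at 2.87 and 1.53 CPM after. CD8 naive cells held 2.41 and 1.39 CPM before and 1.83 CPM after. These 3 subsets overlapped one another at the low end. CD8 memory cells held 14.0 and 12.7 CPM before and 8.32 and 14.8 CPM after, and the lowest of these was above every library of the other subsets.

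HAVCR2 was scarce throughout. Its highest library held 2.39 CPM (CD8 memory, RhM22 before), and its lowest, CD8 naive cells of RhDBCb before treatment, held 0 counts, which allows up to 0.0397 CPM at 3 counts. CD8 memory cells held 2.26 and 2.39 CPM before and 1.34 and 1.45 CPM after. CD4 memory cells held 0.0709 and 1.37 CPM before and 0.743 and 1.33 CPM after. The naive cells lay lower in most libraries. CD4 naive cells held 0.0233 and 0.428 CPM before and 0.232 and 0.305 CPM after, and CD8 naive cells of RhM22 held 0.804 CPM before and 0.294 CPM after. The 2 CD4 libraries and the CD8 naive library of RhDBCb before treatment were the 3 lowest of the 15, whereas the CD8 memory library of that same draw was among the 2 highest.

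**Figure D1:**
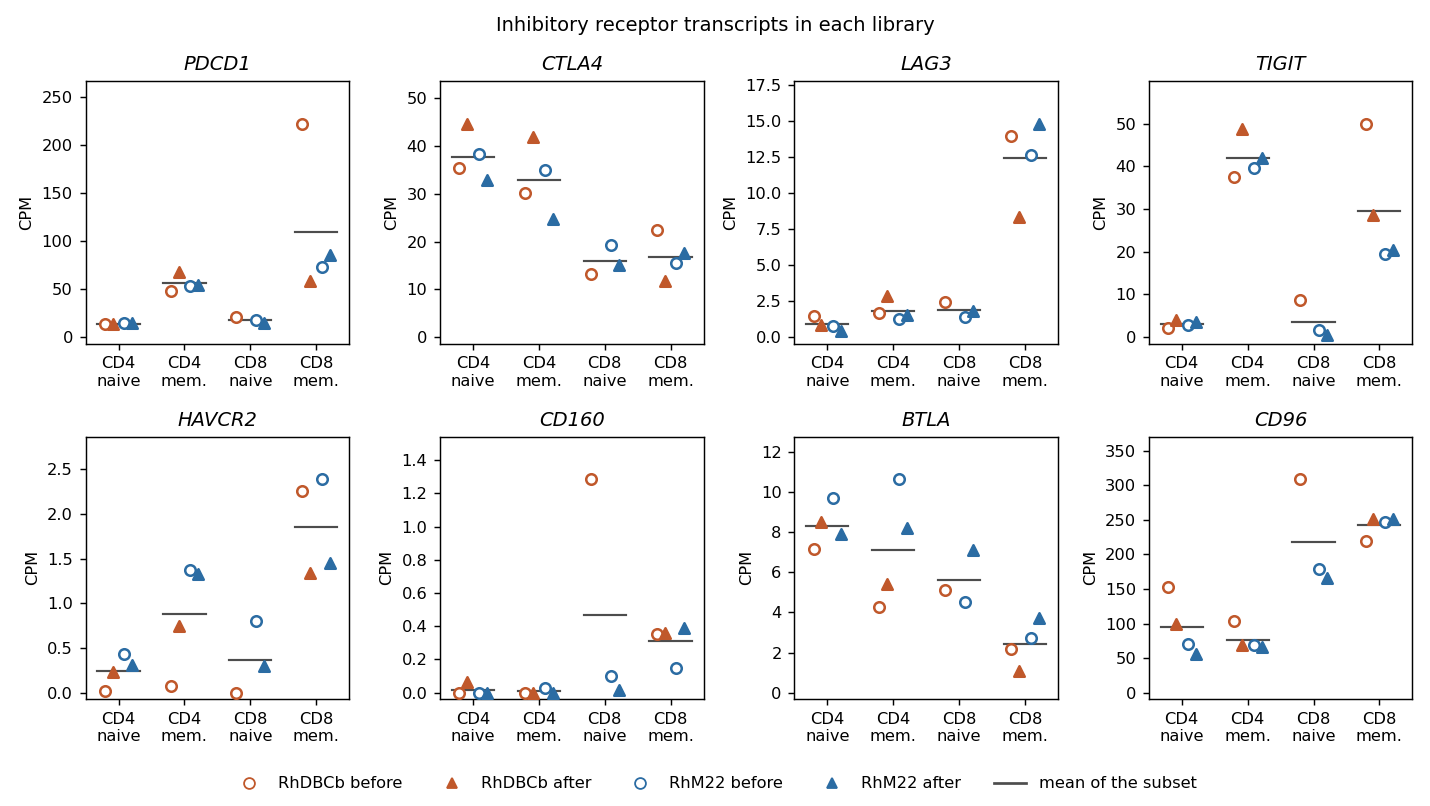
Level of each of the 8 transcripts in each of the 15 libraries, in CPM on a linear axis that differs between panels, by subset (mem., memory). Open circles are before and filled triangles after treatment, red is RhDBCb and blue RhM22, and lines are means over the 3 or 4 libraries of a subset. PDCD1 and TIGIT are high in both memory subsets, LAG3 in CD8 memory, CTLA4 in both CD4 subsets and CD96 in both CD8 subsets.

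CTLA4 followed lineage and not memory. In CD4 naive cells it lay at 35.5 and 38.3 CPM before and at 44.7 and 32.9 CPM after. In CD4 memory cells it lay at 30.3 and 34.9 CPM before and at 42.0 and 24.8 CPM after. Naive and memory CD4 cells overlapped, with RhDBCb after treatment the highest library in each. CD8 naive cells held 13.2 and 19.3 CPM before and 15.1 CPM after. CD8 memory cells held 22.4 and 15.5 CPM before and 11.7 and 17.6 CPM after, and every CD8 library was below every CD4 library.

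CD96 was the reverse, higher in CD8 than in CD4 cells. CD4 naive cells held 152 and 69.9 CPM before and 99.9 and 56.3 CPM after. CD4 memory cells held 104 and 68.3 CPM before and 69.3 and 65.7 CPM after. In both CD4 subsets the highest library was that of RhDBCb before treatment. CD8 naive cells held 308 and 179 CPM before and 165 CPM after, and CD8 memory cells 220 and 246 CPM before and 251 CPM in both animals after. The lowest CD8 library, at 165 CPM, was above the highest CD4 library.

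BTLA was lowest in CD8 memory cells, at 2.17 and 2.72 CPM before and 1.10 and 3.70 CPM after. The other 3 subsets spanned 4.25 to 10.6 CPM. CD4 memory cells covered that whole span, with RhDBCb at 4.25 CPM before and 5.43 CPM after and RhM22 at 10.6 and 8.20 CPM. CD4 naive cells held 7.18 and 9.72 CPM before and 8.50 and 7.91 CPM after, and CD8 naive cells 5.11 and 4.54 CPM before and 7.13 CPM after. No CD8 memory library reached the lowest library of another subset.

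CD160 was nearly absent from CD4 cells. The 8 CD4 libraries held 7 counts in all, and 6 of them held 0 counts. The 7 CD8 libraries held 178 counts, none of them 0. Most of these came from CD8 naive cells of RhDBCb before treatment, with 97 counts (1.28 CPM) against 7 counts before and 1 count after in RhM22. CD8 memory cells were more even, with 21 and 9 counts before and 21 and 22 counts after. At such counts the level of a single library is set by few molecules.

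The order of the subsets therefore differed from gene to gene. Each n below counts libraries of 2 animals, drawn before and after treatment, so the SD is not a spread among n animals. For PDCD1 the mean over both times was 14.1 ± 0.393 CPM in CD4 naive (SD, n = 4), 17.9 ± 3.08 in CD8 naive (n = 3), 55.9 ± 8.63 in CD4 memory (n = 4) and 110 ± 75.5 CPM in CD8 memory cells (n = 4), and the last 2 of these overlapped. For TIGIT the order was CD4 naive (3.12 ± 0.863 CPM, n = 4), CD8 naive (3.66 ± 4.41, n = 3), CD8 memory (29.6 ± 14.2, n = 4) and CD4 memory (42.0 ± 4.90 CPM, n = 4), with overlap inside the naive and inside the memory pair. For LAG3 only CD8 memory, at 12.4 ± 2.89 CPM (n = 4), lay apart from the rest, whose means were 0.894 to 1.88 CPM. For CTLA4 both CD4 subsets, at 37.8 ± 5.09 and 33.0 ± 7.26 CPM (n = 4 each), lay apart from CD8 naive (15.9 ± 3.12, n = 3) and CD8 memory cells (16.8 ± 4.48 CPM, n = 4). For CD96 the CD4 memory and CD4 naive means were 76.7 ± 17.9 and 94.6 ± 42.5 CPM (n = 4 each), against 218 ± 78.9 (n = 3) in CD8 naive and 242 ± 15.2 CPM (n = 4) in CD8 memory cells. For BTLA, CD8 memory cells (2.42 ± 1.08 CPM, n = 4) lay below the 3 other subsets, whose neighbours in order were CD8 naive (5.59 ± 1.36, n = 3) and CD4 memory cells (7.13 ± 2.86 CPM, n = 4), which overlapped.

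The first comparison asked how memory cells differed from naive cells within the CD4 lineage, with animal and time in the fit. Here and in the other subset contrasts the fit takes the libraries as independent, although 2 animals gave all of them. The p-values and intervals may therefore be too small and too narrow. PDCD1 had a log2 fold change of 1.99 (SE 0.31, edgeR adjusted p = 0.00109), higher in CD4 memory, and TIGIT one of 3.73 (SE 0.52, adjusted p = 0.000498). These were the 2 members called, both higher, of 8, where 8.38% of all 14814 genes were called in either direction, 5.22% as higher and 3.16% as lower. The log2 fold change of LAG3 was 1.07 (SE 0.35, edgeR adjusted p = 0.0798) and that of HAVCR2 1.73 (SE 0.93, adjusted p = 0.295), and neither passed. CTLA4, BTLA and CD96 had log2 differences of -0.20 (95% interval -0.67 to 0.27), -0.30 (-0.93 to 0.32) and -0.24 (-0.68 to 0.19). The median over the 8 genes was 0.44, against -0.03 over all genes. The LAG3 difference passed, at an edgeR adjusted p of 0.0428 and a log2 fold change of 1.36, once the CD4 naive library of RhDBCb before treatment was left out.

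Within the CD8 lineage 3 members were higher in memory cells and 1 was lower, where 13.5% of all genes were called, 8.1% as higher and 5.39% as lower. PDCD1 was higher by 2.56 (SE 0.36, edgeR adjusted p = 0.000357), LAG3 by 2.72 (SE 0.40, adjusted p = 0.000532) and TIGIT by 3.20 (SE 0.58, adjusted p = 0.00234). BTLA fell by 1.18 from naive to memory (SE 0.31, edgeR adjusted p = 0.0222). HAVCR2 had a log2 fold change of 3.21 with an SE of 1.15 and did not pass (edgeR adjusted p = 0.0798). CTLA4, at 0.08 (95% interval -0.44 to 0.60), and CD96, at 0.20 (-0.28 to 0.68), were close to 0. The interval of CD160, at 0.20, ran from -2.70 to 3.11 and allows a large difference in either direction. The median of the 8 was 1.38, against 0.03 over all genes.

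The PDCD1 and TIGIT calls in both lineages, and the LAG3 call in CD8 cells, held whichever 1 of the 15 libraries was left out. Such fits keep libraries of both animals. In RhDBCb alone the PDCD1 call was lost within CD4 cells (log2 fold change 2.15). Within CD8 cells of that animal, PDCD1 (2.85), LAG3 (2.32) and TIGIT (2.13) were not called. The PDCD1 call within CD4 cells was also lost in the before libraries alone (1.87), and the LAG3 call within CD8 cells in the after libraries alone (2.54). The PDCD1 difference within CD8 cells was 2.01 without the high CD8 memory library of RhDBCb. The TIGIT difference within CD8 cells was 4.50 without the CD8 naive library of RhDBCb before treatment. The BTLA call within CD8 cells did not hold without that library (edgeR adjusted p = 0.124), without the CD8 naive library of RhM22 after treatment (0.111) or without the CD8 memory library of RhM22 before treatment (0.0615), nor in a fit without animal (0.0942). Its log2 difference was -0.99, -1.08, -1.15 and -1.21 in these fits, against -1.18. HAVCR2 passed, with a log2 fold change of 4.77 (edgeR adjusted p = 0.0413), without the CD8 naive library of RhM22 before treatment.

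Whether the step from naive to memory differed between the lineages was tested as the difference of these 2 contrasts. None of the 8 genes was called by edgeR or DESeq2, where edgeR called 0.0405% of all genes (0.027% as higher and 0.0135% as lower), and 1 member had an unadjusted p under 0.05 in edgeR. This was LAG3, whose step was larger in CD8 cells by a log2 difference of 1.65 (SE 0.51, edgeR adjusted p = 0.455). The interval of the difference ran from -0.38 to 1.52 for PDCD1 and from -2.06 to 0.99 for TIGIT. The steps of these genes were thus not shown to differ between CD4 and CD8 cells.

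**Figure D2:**
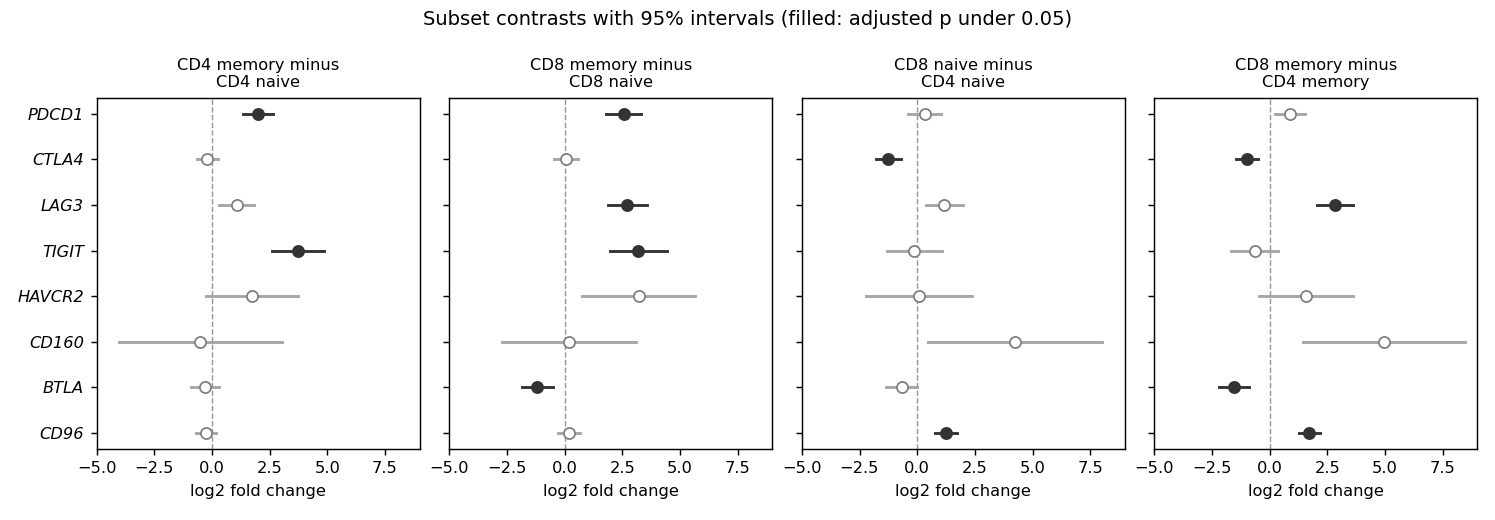
Log2 fold change of each of the 8 genes in 4 contrasts between subsets, from the edgeR fit over 15 libraries, with bars for the 95% interval. Filled points passed an adjusted p of 0.05 over all 14814 genes tested. Called genes are PDCD1 and TIGIT in both memory contrasts, LAG3 in CD8 memory against either neighbour, CTLA4 and CD96 in both lineage contrasts, and BTLA in CD8 memory.

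Between the lineages, CTLA4 and CD96 differed in naive and in memory cells alike. In CD8 naive against CD4 naive cells CTLA4 fell by 1.25 (SE 0.25, edgeR adjusted p = 0.0123) and CD96 was higher by 1.27 (SE 0.22, adjusted p = 0.00447). These were 1 lower and 1 higher of 8, where 2.79% of all genes were called, 1.54% as higher and 1.26% as lower. In CD8 memory against CD4 memory cells CTLA4 fell by 0.98 (SE 0.22, edgeR adjusted p = 0.0161) and BTLA by 1.56 (SE 0.30, adjusted p = 0.00537). LAG3 was higher in CD8 memory by 2.83 (SE 0.36, edgeR adjusted p = 0.00026) and CD96 by 1.71 (SE 0.21, adjusted p = 0.000188). The 2 higher and 2 lower members compare with 6.35% of all genes called, 3.76% as higher and 2.59% as lower.

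PDCD1 and TIGIT, which separated memory from naive cells, did not pass between the lineages in edgeR. In memory cells PDCD1 had a log2 difference of 0.89, CD8 minus CD4 (95% interval 0.25 to 1.54, edgeR adjusted p = 0.105), and TIGIT one of -0.65 (-1.66 to 0.35, adjusted p = 0.513). PDCD1 passed without the CD8 memory library of RhDBCb after treatment, with a difference of 1.16 (edgeR adjusted p = 0.0283), and DESeq2 called it with all libraries (0.91, adjusted p = 0.0354). CD160 had a log2 difference of 4.94 in memory cells (SE 1.64, edgeR adjusted p = 0.0958) and of 4.24 in naive cells (SE 1.76, adjusted p = 0.325), with the CD4 side at or near 0 counts. It passed in memory cells (edgeR adjusted p = 0.0463) without the CD4 memory library of RhM22 before treatment, which held both of the CD160 counts of that subset. These fitted values depend on how counts of 0 are handled and are no bound on the fold. CD160 passed the filter only through CD8 libraries. Its p-values between the lineages are therefore no support for a difference.

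The CTLA4 calls were lost in some fits that left out 1 library, with the direction and most of the size of the difference kept. In memory cells the call held in 11 of 15 fits that left out 1 library and did not hold without the CD4 memory library of RhDBCb after treatment (edgeR adjusted p = 0.0695), the CD8 memory library of RhDBCb after treatment (0.0637), or the CD4 memory (0.0679) or CD8 memory (0.0564) library of RhM22 before treatment. The log2 difference in these fits was -0.93 to -0.79, against -0.98 with all libraries. In naive cells it did not hold without the CD8 naive library of RhDBCb before treatment (edgeR adjusted p = 0.105) or of RhM22 after treatment (0.0768), with log2 differences of -1.06 and -1.23. The CD96 call in naive cells did not hold without the former (log2 difference 1.14, edgeR adjusted p = 0.0508) or in a fit without animal (1.15, adjusted p = 0.0898). The CD96 and BTLA calls in memory cells held in all 15 such fits.

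Regulatory T cells are known for CTLA4 and TIGIT, and their marker list was measured beside these genes. The summed level of its 8 genes was 46.8 to 103 CPM in CD4 naive, 169 to 262 in CD4 memory, 17.1 to 21.1 in CD8 naive and 43.9 to 151 CPM in CD8 memory cells. The highest CD8 memory sum was that of RhDBCb before treatment, most of it TNFRSF18 (68.1 CPM) and IL2RA (60.8 CPM). FOXP3 was at 0.967 CPM and RTKN2 at 1.83 CPM in that library. FOXP3, the defining factor of regulatory T cells, was lower in CD8 than in CD4 cells, falling by 2.44 in naive (SE 0.43, edgeR adjusted p = 0.00436) and by 2.95 in memory cells (SE 0.38, adjusted p = 0.000294). FOXP3 was higher in CD4 memory than in CD4 naive cells by 2.30 (SE 0.38, edgeR adjusted p = 0.00151), a contrast in which CTLA4 was not called. Of the 8 listed genes, 0 were higher and 3 lower in CD8 naive than in CD4 naive cells, where 2.79% of all genes were called. Between the memory subsets 0 were higher in CD8 cells and 2 lower, where 6.35% of all genes were called. IKZF2 had higher means in CD8 cells, at 3.82 against 1.46 CPM in naive and 4.45 against 3.10 CPM in memory cells. So did TNFRSF9, at 0.806 against 0.615 CPM and 1.72 against 1.71 CPM. The part of regulatory T cells in the CTLA4 and TIGIT levels was not tested.

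Follicular helper cells, which lie in the CD4 lineage, are known for PD-1, TIGIT and BTLA. The sum of their 8 listed genes, most of it ICOS, was 878 to 1481 CPM in CD4 naive, 1353 to 2227 in CD4 memory, 294 to 545 in CD8 naive and 840 to 1248 CPM in CD8 memory cells, and 3 of the 7 tested were higher in CD4 memory and 4 in CD8 memory than in naive cells. The list of mucosal-associated invariant T cells summed to 14.5 to 29.0 CPM in CD4 naive, 27.3 to 43.5 in CD4 memory, 33.4 to 75.8 in CD8 naive and 169 to 311 CPM in CD8 memory cells, with 4 of its 5 genes higher in CD4 memory and 5 of 5 in CD8 memory than in naive cells. Over all genes 5.22% were called higher in CD4 memory and 8.1% in CD8 memory than in naive cells. ZBTB16 of the latter list ran the other way in CD4 cells, with means of 13.0 CPM in memory and 18.8 CPM in naive cells. The part of either cell type in the PDCD1, TIGIT and LAG3 levels was not tested.

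Natural killer cells can hold LAG3, TIGIT, CD96 and CD160, and the summed level of their markers also differed between the subsets. The sum of the 9 natural killer genes found, of 10 listed, was 5.28 to 7.53 CPM in CD4 naive, 7.05 to 9.16 in CD4 memory, 13.3 to 26.6 in CD8 naive and 39.0 to 94.5 CPM in CD8 memory cells. Most of the sum in CD8 memory cells was KLRF1 (mean 43.7 CPM) and TYROBP (14.9 CPM). NCR2 was at 0 in every library, and FCER1G was at most 0.230 CPM. SH2D1B had a mean of 0.403 CPM in CD8 memory and 0.669 CPM in CD8 naive cells. In RhDBCb before treatment it was at 0.136 CPM in memory and 1.56 CPM in naive cells. In RhM22 it was higher in memory, at 0.560 against 0.373 CPM before and 0.212 against 0.0699 CPM after. Of the 8 tested, 0 were called in CD4 memory against naive cells and 3 were higher in CD8 memory. The shares called over all genes were 8.38% and 13.5%. The gamma-delta chain gene TRGC2, the one gene of that list found, ran in the order of the natural killer sum, from 0.117 to 0.373 CPM in CD4 naive to 10.1 to 34.4 CPM in CD8 memory cells. The B cell list was higher in CD8 naive cells, at 67.8 to 113 CPM, than elsewhere (17.1 to 52.4 CPM), and most of that sum was CD79A (mean 84.5 CPM in CD8 naive cells). The B cell gene MS4A1 was at most 1.71 CPM in any library, and BLK was higher in CD8 memory (mean 10.6 CPM) than in CD8 naive cells (2.76 CPM). The part of such cells in the levels of the 8 receptors was not tested.

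Turning to treatment, none of the 8 transcripts was called after against before over all subsets. edgeR called 0 of 8 and had 0 of 8 at an unadjusted p under 0.05, DESeq2 called 0 of 8, and edgeR called 0.00675% of all genes. The log2 fold changes after treatment ran from -0.24 for CD96 to 0.21 for HAVCR2, with a median of -0.16 against 0.01 over all genes. Their adjusted p-values ran from 0.609 (CD96) to 0.991 (BTLA). The 95% intervals come from a fit that takes the 15 libraries as independent, although they come from 2 animals and 4 draws, so they may be too narrow as limits on a change with treatment. They ran from -0.44 to 0.26 for CTLA4, from -0.57 to 0.09 for CD96, from -0.71 to 0.26 for PDCD1, from -0.47 to 0.45 for BTLA and from -0.60 to 0.50 for LAG3. For TIGIT (-1.02 to 0.57), HAVCR2 (-1.29 to 1.71) and CD160 (-3.01 to 2.55) they were wider.

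The 7 before-and-after pairs moved in both directions for every gene. PDCD1 and TIGIT were higher after treatment in 5 of 7 pairs, LAG3 and BTLA in 4, CTLA4 in 3 and HAVCR2 and CD96 in 2. CD160 was higher in 3, lower in 2 and at 0 counts both times in 2. CTLA4 had higher values after treatment in both CD4 pairs of RhDBCb, from 35.5 to 44.7 CPM in naive and from 30.3 to 42.0 CPM in memory cells. In RhM22 it went the other way in both CD4 pairs, from 38.3 to 32.9 CPM and from 34.9 to 24.8 CPM.

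**Figure D3:**
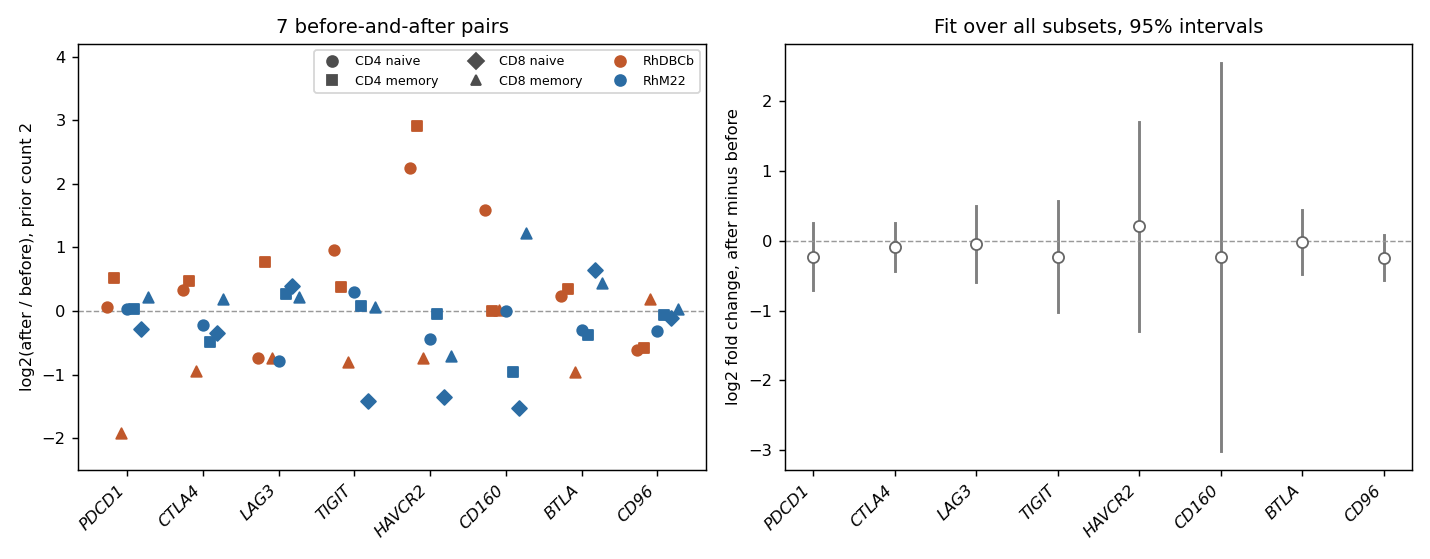
Left: log2 ratio of after to before treatment in each of the 7 pairs, computed on CPM with a prior count of 2, with shapes for subsets and colours for animals. Right: log2 fold change of the edgeR fit over all subsets with its 95% interval. Pairs lie on both sides of 0 for each gene, the lowest PDCD1 pair is CD8 memory of RhDBCb, and all 8 intervals include 0.

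Within single subsets edgeR again called 0 of 8 genes in each of the 4 subsets, where 0% of all genes were called in any of them, and DESeq2 called 0 of 8 in each. A single member had an unadjusted p under 0.05 in CD8 memory, a single one in CD8 naive, and none in CD4 naive or CD4 memory cells. In CD8 memory this was PDCD1, with a log2 fold change of -0.98 (SE 0.40, edgeR unadjusted p = 0.0326, adjusted p = 1). In RhDBCb its level was 222 CPM before and 58.5 CPM after, and in RhM22 73.3 CPM before and 85.0 CPM after, so the animals moved in opposite directions. Without the RhDBCb library before treatment the fitted change was -0.01, and without both CD8 memory libraries of that animal it was 0.24.

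Genes of proliferation and activation were looked at in that CD8 memory library of RhDBCb after its PDCD1 value was seen, and some were high there and others not. MKI67, a marker of dividing cells, was at 112 CPM there, 11.0 CPM after treatment in the same animal, and 5.94 and 10.1 CPM in RhM22. TOP2A, needed for chromosome separation, was at 40.5 CPM there and at 13.2 to 13.8 CPM in the other 3 CD8 memory libraries. IL2RA, the interleukin-2 receptor alpha chain, was at 60.8 CPM against 17.2 to 26.8 CPM, while FOXP3 was at 0.967 CPM, the lowest of the CD8 memory libraries. The activation genes CD38, at 45.8 CPM against 41.7 to 81.8 CPM, and CD69, at 328 CPM against 323 to 561 CPM, lay within the range of the other 3. TIGIT (50.0 CPM) and CTLA4 (22.4 CPM) were likewise highest there among CD8 memory libraries, and LAG3 (14.0 CPM) was not. The part of dividing or activated cells in the PDCD1 level was not tested.

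In CD8 naive cells the member was TIGIT, with a log2 fold change of -2.63 (SE 0.79, edgeR unadjusted p = 0.00622, adjusted p = 1). The after side was the single library of RhM22, whose spread was taken to be that of the other groups. Within RhM22 TIGIT went from 1.65 to 0.601 CPM. Without the CD8 naive library of RhDBCb before treatment, at 8.72 CPM, the fitted change was -1.45.

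Whether the animals changed differently was tested as RhM22's change minus RhDBCb's. edgeR and DESeq2 each called 0 of 8 genes, with 0 of 8 at an unadjusted p under 0.05 in edgeR, where edgeR called 4.58% of all genes (1.81% as higher and 2.77% as lower). That background of 679 genes ran from 99, without the CD8 naive library of RhM22 before treatment, to 1314, without the CD8 memory library of RhDBCb before treatment. The largest fitted difference was that of HAVCR2, at -2.17 (SE 1.29, edgeR adjusted p = 0.379). It passed, at -4.63 (edgeR adjusted p = 0.0113), without the CD8 memory library of RhDBCb before treatment. In RhDBCb HAVCR2 went from 0.0233 to 0.232 CPM in CD4 naive and from 0.0709 to 0.743 CPM in CD4 memory cells, but from 2.26 to 1.34 CPM in CD8 memory cells. The CD4 naive start was 1 count and the CD4 memory start 4 counts, against a limit of 3 counts for 0. Monocytes also hold TIM-3, and their marker list summed to 14.1 CPM before and 38.1 CPM after in that CD4 memory pair (LYZ 2.69 and 14.7 CPM), and to 16.6 and 11.9 CPM in the CD4 naive pair. Their part in the HAVCR2 levels was not tested. In RhM22 it was lower after treatment in all 4 subsets, by as little as 1.37 against 1.33 CPM in CD4 memory cells. The remaining 7 differences ran from -0.65 for CD160 to 0.49 for PDCD1. Each animal gave 1 draw per time, so these p-values measure spread among libraries and not among draws.

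The ligands of these receptors were followed in a list of 16 genes, of which 13 were tested. In CD4 memory against CD4 naive cells 3 were higher and 0 lower, with a list median of 0.49, against 8.38% of all genes called and an all-gene median of -0.03. The 3 were CD80, by 5.37 (SE 0.53, edgeR adjusted p = 4.328e-05), CD86, by 3.78 (SE 0.65, adjusted p = 0.00228), and LGALS3, by 2.74 (SE 0.26, adjusted p = 3.815e-05). CD80 and CD86 are the shared ligands of CD28 and CTLA-4, best known from antigen-presenting cells, and LGALS3 encodes galectin-3, a ligand of LAG-3. In CD8 memory against CD8 naive cells the same 3 genes and FGL2, a relative of the LAG-3 ligand FGL1, were higher and 0 were lower, against 13.5% of all genes called. CD80 was higher there by 3.19 (SE 0.53, edgeR adjusted p = 0.00131) and CD86 by 3.75 (SE 0.74, adjusted p = 0.00395). Between the naive subsets 1 ligand was higher in CD8 cells, CD80 by 2.15 (SE 0.52, edgeR adjusted p = 0.0369), and 1 was lower, and between the memory subsets 1 was lower. Over all genes 2.79% were called between the naive and 6.35% between the memory subsets. With 13 ligands tested, 1 call between the memory subsets is near that share. The lower ligand was FGL2 in each. FGL2 fell by 1.99 from CD4 naive to CD8 naive (SE 0.36, edgeR adjusted p = 0.00603) and by 1.67 from CD4 memory to CD8 memory cells (SE 0.31, adjusted p = 0.0046). The list of monocyte and dendritic cell markers, whose cells hold CD80 and CD86, summed to 9.21 to 16.6 CPM in CD4 naive, 14.1 to 45.5 in CD4 memory, 21.1 to 45.7 in CD8 naive and 17.3 to 57.1 CPM in CD8 memory cells. Their part in the CD80 and CD86 levels was not tested.

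Further receptors, stimulatory and inhibitory, formed a list of 20 genes with 19 tested. In each of the memory contrasts 7 were higher and 1 was lower, with medians of 0.76 in CD4 and 0.79 in CD8 cells, where 8.38% and 13.5% of all genes were called. KLRG1, an inhibitory receptor for cadherins, was higher in CD4 memory than in CD4 naive cells by 5.41 (SE 0.74, edgeR adjusted p = 0.000407). TNFSF14 (LIGHT), the stimulatory partner of HVEM, was higher by 3.60 (SE 0.49, adjusted p = 0.000411) in CD4 and by 3.13 (SE 0.51, adjusted p = 0.00117) in CD8 memory cells. CD101, another inhibitory receptor, was higher by 5.09 in CD8 memory cells (SE 0.85, edgeR adjusted p = 0.00126). PECAM1, which also carries inhibitory motifs, was the 1 gene lower in each, falling by 1.25 in CD4 (SE 0.22, edgeR adjusted p = 0.00296) and by 1.44 in CD8 memory cells (SE 0.24, adjusted p = 0.0013). CD226, the stimulatory rival of TIGIT and CD96, was called in neither memory contrast, with log2 differences of 0.30 in CD4 and -0.23 in CD8 cells.

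Between lineages 5 of these 19 receptors were higher in CD8 cells and 2 were lower, in naive and in memory cells, where 2.79% and 6.35% of all genes were called. CRTAM, a nectin-like receptor of activated cytotoxic cells, was higher by 7.37 in naive (SE 0.49, edgeR adjusted p = 5.33e-07) and by 5.04 in memory cells (SE 0.43, adjusted p = 7.415e-06). KLRG1 was higher by 8.13 in naive (SE 0.71, edgeR adjusted p = 1.099e-05) and by 5.42 in memory cells (SE 0.50, adjusted p = 1.444e-05). The mean level of KLRG1 in CD4 naive cells was 0.0149 CPM, under the level of 3 counts in any of those libraries, so its fitted differences from CD4 naive cells depend on how near-0 counts are handled. The 2 lower genes were ICOS, a stimulatory relative of CTLA4, and CD5, a receptor that dampens antigen signals. ICOS fell by 1.56 in naive (SE 0.19, edgeR adjusted p = 0.000242) and by 0.67 in memory cells (SE 0.17, adjusted p = 0.0271), the direction in which CTLA4 also differed. CD5 fell by 0.82 (SE 0.20, edgeR adjusted p = 0.0377) and by 1.00 (SE 0.18, adjusted p = 0.00348).

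The intracellular relays of inhibition, a list of 21 genes all of which were tested, had 1 call in CD4 and 6 in CD8 cells between memory and naive, where 8.38% and 13.5% of all genes were called. SH2D2A, an adaptor of T cell receptor signals, was the 1 gene called in CD4 memory against CD4 naive cells, higher by 1.19 (SE 0.26, edgeR adjusted p = 0.0115). In CD8 memory against CD8 naive cells 6 were higher and 0 lower, with a median of 0.26. SH2D2A was higher there by 1.99 (SE 0.30, edgeR adjusted p = 0.000605) and TRAT1, an adaptor that helps keep CTLA-4 and the T cell receptor at the surface, by 1.29 (SE 0.31, adjusted p = 0.0125). In CD8 memory against CD4 memory cells the phosphatase genes PTPN22, by 1.49 (SE 0.16, edgeR adjusted p = 7.764e-05), and INPP5D, by 1.22 (SE 0.20, adjusted p = 0.00146), were the 2 called, both higher, where 6.35% of all genes were called. TRAT1 was the 1 relay called between the naive subsets, where it fell by 1.86 (SE 0.31, edgeR adjusted p = 0.00344). In that contrast 2.79% of all genes were called. PTPN6 and PTPN11, which encode the phosphatases SHP-1 and SHP-2 that PD-1 and BTLA recruit, were called in none of the 4 contrasts between subsets.

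Transcription factors tied to these receptors, a list of 24 genes all of which were tested, were called in both directions. In CD4 memory against CD4 naive cells 9 were higher and 4 lower, with a median of 0.71, and in CD8 memory against CD8 naive cells 10 were higher and 2 lower, with a median of 0.62, where 8.38% and 13.5% of all genes were called. TBX21 (T-bet) was higher in CD4 memory by 3.44 (SE 0.30, edgeR adjusted p = 1.608e-05) and EOMES by 3.24 (SE 0.35, adjusted p = 6.365e-05). In CD8 memory MAF was higher by 3.31 (SE 0.55, edgeR adjusted p = 0.00132) and TBX21 by 2.63 (SE 0.31, adjusted p = 0.000111). BACH2, which holds back effector programmes, fell by 2.57 in CD4 memory (SE 0.37, edgeR adjusted p = 0.000541) and by 2.45 in CD8 memory cells (SE 0.38, adjusted p = 0.000844). NR4A1, induced by antigen signals, fell by 0.97 in CD4 memory cells (SE 0.22, edgeR adjusted p = 0.0121). TOX, a factor of T cells under long stimulation, was called in neither, with log2 differences of 0.37 and 0.33.

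Between lineages ZEB2 and EOMES led the factors that were higher in CD8 cells, by 4.08 (SE 0.56, edgeR adjusted p = 0.000631) and 3.66 (SE 0.37, adjusted p = 4.321e-05) in naive and by 3.77 (SE 0.51, adjusted p = 0.000373) and 2.94 (SE 0.33, adjusted p = 9.624e-05) in memory cells. MAF, a regulator of several inhibitory receptors, fell by 3.02 from CD4 naive to CD8 naive (SE 0.55, edgeR adjusted p = 0.00606) and by 1.67 from CD4 memory to CD8 memory cells (SE 0.45, adjusted p = 0.0404). In all, 3 factors were higher and 4 lower in naive cells, and 5 were higher and 4 lower in memory cells, where 2.79% and 6.35% of all genes were called. edgeR called no gene of the 4 lists for treatment over all subsets, for treatment in any single subset, or for the difference between the memory steps of CD8 and CD4 cells. In the difference between the animals' changes, FGL2, PECAM1, DGKA and STAT5A were called lower and UBASH3B, CBLB and NR4A2 higher, RhM22 minus RhDBCb, where 4.58% of all genes were called.

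Genes whose pattern over the 15 libraries was most like each receptor were found by the root-mean-square difference of centred log2 CPM among 9914 genes, as a description. PDCD1 was nearest to ZBP1 (0.41), S100A10 (0.43) and NENF (0.44), and LAG3 to NCR3 (0.44), PLXNC1 (0.58) and EMB (0.63). TIGIT was nearest to DMTN (0.58), CD109 (0.71) and LGALS3 (0.72), the last of these a gene of the ligand list. CTLA4 was nearest to RNASE6 (0.27), P2RY8 (0.29) and TRIM8 (0.32), BTLA to CYB5D2 (0.40), MPP1 (0.41) and NKIRAS1 (0.43), and CD96 to PIK3R1 (0.33), SLC37A1 (0.37) and GEMIN7 (0.40). For HAVCR2 and CD160, both with few counts, the nearest were HIC1 (0.86), CPVL (0.88) and FURIN (0.90) for the former and APBB2 (0.97) and CD244 (1.00) for the latter. The measure also depends on a receptor's own spread, so its values do not rank the receptors. HAVCR2 (SD 1.94) correlated with HIC1 at 0.89, and BTLA (SD 0.89) with CYB5D2 at 0.89. Among the 8 receptors themselves the nearest pairs by the root-mean-square difference were CTLA4 with BTLA (0.65) and PDCD1 with LAG3 (0.93). This measure favours genes that vary little, and the first value was no smaller than the SD of CTLA4 itself (0.64). By correlation the closest pairs were PDCD1 with TIGIT (r = 0.86) and CD160 with CD96 (0.84), against 0.66 for CTLA4 with BTLA. These 15 points share 2 animals and 4 draws.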

How the data were processed

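RNA-seq (SMART-Seq v4, a kit that does not mark strand, per the labels' protocols) was measured in 15 T cell libraries of 2 animals. The authors deposited expected counts per gene, estimated with RSEM 1.3.3 after cutadapt 1.18 and STAR 2.7.6a on builds Mmul_10 and rheMac10, per the submitters' processing notes. They also deposited FPKM values. The gene length these imply was a median of 0.933 times the gene's span with introns over 9377 genes, so FPKM was not used to compare genes.

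Expected counts were rounded, with a change of 26.1 or less in a library's total. Genes were filtered with filterByExpr (minimum count 10) by subset and time, scaled with TMM and tested with edgeR 4.0.16 (quasi-likelihood F test, R 4.3.3), with Benjamini-Hochberg adjustment over all 14814 genes and calls at 0.05. Subset contrasts and treatment over all subsets came from a model of subset, time and animal. Single-subset treatment came from 8 subset-by-time groups plus animal, and the animals' difference from an animal-by-time term. The SE is the absolute log2 fold change over the square root of F, and intervals are 95%. Samples are paired because the labels name the animal. Across genes, deviations from the group means correlated between an animal's before and after libraries at 0.296 (CD8 memory), 0.316 (CD4 naive) and 0.445 (CD4 memory). A limit for 0 counts is 3 counts and, like all counting error here, ignores PCR copies.

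The 8 genes and all lists were chosen with earlier results of these data known. Companion genes named were up to 2 per direction, list and contrast, with the largest change among those called at a mean CPM of at least 5, all called genes of lists with few calls, and, chosen after their values were seen, CD226, TOX, PTPN6, PTPN11, MKI67, TOP2A, CD38 and CD69. Likeness used genes with a mean CPM of at least 1 and a prior count of 2. A few genes taken by these rules are not reported here, and all fits and sums keep them. DESeq2 1.42.0, its size factors, no filter, no replicate block, single animals, single times and leaving out each library were alternatives. The fits were tested on simulated data. No genome sequence was used.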

Additional observations from a re-analysis of the deposited data

Results flagged for a closer look

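The 8 genes were looked at in the 3 subsets with 4 libraries, which makes 24 groups. In 6 of 24 groups 1 library stood far from the other 3 by Dixon's test. For independent values chance does this in about 1 of 20 groups. Here each group is 2 animals at 2 times and the same libraries recur across genes, so that rate does not apply. In 2 of the 6 the other 3 libraries held 0 counts, so that any value above 0 counts as far. PDCD1 lay at 222 CPM in CD8 memory cells of RhDBCb before treatment, against 58.5 to 85.0 CPM in the other 3. CD96 lay at 104 CPM in CD4 memory cells of the same draw, against 65.7 to 69.3 CPM, and at 220 CPM in its CD8 memory cells, against 246 to 251 CPM. CD160 lay at 0.148 CPM in CD8 memory cells of RhM22 before treatment, against 0.356 to 0.388 CPM. The 2 groups with 0 counts elsewhere concern CD160 in CD4 cells. It was at 0.0644 CPM in CD4 naive cells of RhDBCb after treatment, from 5 counts, and at 0.0305 CPM in CD4 memory cells of RhM22 before treatment, from 2 counts, which is under the limit that 0 counts allow.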

How the results depend on the processing

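With DESeq2's size factors or no filter on low counts, the number of the 8 genes called equalled the main number in every comparison. No called difference changed sign in any alternative, and 114 of 1888 recomputed values changed sign without passing in either fit. Without the replicate block for animal 1 gene was called between the naive subsets in place of 2, CTLA4, as CD96 had an adjusted p of 0.0898, and 3 in place of 4 within CD8 cells, as BTLA had 0.0942; the paired and unpaired fits called 2 and 4 in the other contrasts between subsets. In RhDBCb alone 1 gene was called within CD4 cells, 0 within CD8 cells, 0 between naive and 1 between memory cells; RhM22 alone gave 3, 5, 2 and 4. The before libraries alone gave 1 within CD4, 0 between naive and 1 between memory cells, and the after libraries alone 2 within CD8, 0 between naive and 1 between memory cells. These fits hold fewer samples, and calls over all genes also fell in several of them. The main fit called 1242 genes within CD4, 1999 within CD8, 414 between naive and 941 between memory cells. In the same order the before libraries alone gave 141, 539, 109 and 147. RhDBCb alone gave 268 within CD4 and 193 between memory cells, and the after libraries alone 213 between memory cells. RhM22 alone gave 646 between naive cells. Without the before libraries of RhDBCb 4 were called within CD4 and 1 between naive cells; the cause was not tested.

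Leaving out 1 library at a time gave 2 to 3 genes called within CD4, 3 to 5 within CD8, 0 to 2 between naive and 3 to 4 between memory cells, 0 to 1 for the difference between the animals, and 0 throughout for treatment and for the difference of the memory steps. DESeq2 called 3, 5, 3 and 6 of the 8 in the 4 contrasts between subsets, adding LAG3 within CD4 and between naive cells, HAVCR2 within CD8 cells, and PDCD1 and CD160 between memory cells. CD160 had passed the filter only through CD8 libraries. Over all genes DESeq2 called 2181 in place of 1242 within CD4, 3109 in place of 1999 within CD8, 932 in place of 414 between naive, 1672 in place of 941 between memory cells, 244 in place of 6 for the difference of the memory steps, 177 in place of 1 for treatment, 9 in place of 0 for treatment in CD4 naive cells and 1667 in place of 679 between the animals. Without the block edgeR called 502, 941, 196, 384, 1 and 0 genes in the first 6 of these. Leaving out 1 library gave 776 to 1436, 1041 to 2163, 251 to 468, 621 to 1046, 0 to 13 and 0 to 3 genes in the same order, and 99 to 1314 between the animals.

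With 2 animals and 4 draws, the spread between animals rests on 1 difference. Low counts limit the precision for CD160 and HAVCR2.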
